A study of Mus musculus with 4 samples.

Results

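The genes described here encode the proteins that load, fire and carry the DNA replication fork: the origin recognition complex, the MCM helicase, the factors that license and activate it, the replicative polymerases with their clamp and clamp loader, and the E2F transcription factors that drive many of these genes. The 50 genes were listed by name, and every probe set whose single platform gene symbol was a listed member was taken. In all, 104 probe sets for 49 of the 50 genes were found among 34945 with a single symbol, which stand for 18193 genes. Chaf1a, the large subunit of the chromatin assembly factor CAF-1, had no such probe set and was not analysed here.

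In the thymus, CD4+CD8+ double-positive (DP) cells are the immature T cells that carry both co-receptors. RNA came from DP cells and was hybridized to 4 Affymetrix mouse expression arrays. Of these, 2 held DP cells of normal thymus (genotype label WT) and 2 held DP cells of peripheral tumours, called thymoma in the labels, that over-express Notch1-IC (genotype label T-ALL). Notch1-IC is the intracellular, active part of the Notch1 receptor, and T-ALL is T-cell acute lymphoblastic leukaemia. Both groups carry the genetic background label WT C57/BLACK6. The labels do not give the age of the mice, the way Notch1-IC was introduced, or whether replicates are different mice, so the p-values rest on a spread that may be technical alone. One label field, the sample type, calls all 4 samples tumour cells. Titles, source names and genotypes separate them, and Notch1 itself was 1104 and 1098 intensity units on the normal arrays and 7155 and 6417 on the tumour arrays. Tissue site and transformation cannot be told apart.

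Background values of the samples were as follows. Of 9 measured DP thymocyte markers, 8 fell in the tumour arrays, where their summed intensity was 28946 and 29371 against 64684 and 65085 in the normal arrays, and 0 of the 9 were at background in either group. Of 11 macrophage markers 9 rose and 0 fell (summed intensity 101 and 169 in normal, 2125 and 2251 in tumour), and C1qa, C1qc, Cd14, Cd163 and Fcgr3 did not exceed background in normal cells. Of 9 neutrophil markers 7 rose and 0 fell (195 and 260.3 in normal, 2157 and 2208 in tumour), and Lcn2 and Ltf did not exceed background in normal cells. Of 4 erythroid markers 1 rose and 0 fell (25.9 and 16.4 in normal, 119 and 156 in tumour), and all 4 did not exceed background in normal cells, nor did Hba-a1 in tumour cells. Of 5 B-cell markers 1 fell and 0 rose (362 and 330.5 in normal, 101 and 103 in tumour), and Cd79a and Pax5 did not exceed background in either group. Of 7 thymic stroma markers 1 rose and 1 fell (141 and 139 in normal, 157 and 169 in tumour). The ratio of the 3' to the 5' beta-actin control probe set, a sign of RNA quality, was 1.28 and 1.20 in normal and 2.46 and 2.53 in tumour arrays. The part of these differences in the results below was not tested. In such bulk samples, fewer cycling cells and less of a transcript per cycling cell cannot be told apart.

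DNA replication starts in separate steps that the cell keeps apart in time. In G1 phase the origin recognition complex, with CDC6 and CDT1, loads the MCM helicase on origins as a double ring, a step called licensing that geminin blocks later. In S phase the CDC7-DBF4 kinase, CDC45 and GINS turn that ring into an active helicase, primase and polymerase alpha start each new strand, polymerases epsilon and delta extend it with the PCNA clamp, and FEN1 and ligase 1 join the Okazaki fragments. In the thymus, cells divide rapidly before and during entry into the DP stage, and most DP cells are then small and do not divide.

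E2F factors bind promoters of many of these genes at sites close to the letters TTTCCCGC and TTTGGCGC. The motifs TTTCCCGC, TTTGGCGC, TTTCGCGC and TTTGCCGC were searched on both strands in RefSeq promoter windows of 300 bases, 250 before and 50 after each annotated transcript start (GRCm38.p6), and overlapping matches were counted separately. Windows were found for 42 of the 50 genes. A match stood in 18 of their 53 windows (34.0%), against 744 of 32851 windows of all genes (2.26%) and 420 of 9778 windows of genes above background on all 4 arrays (4.30%). A match stood in 6 of 23 windows of members higher in tumour, in 2 of 7 of members that were lower and in 10 of 22 of members that did not pass the test. The remaining window was that of Chaf1a and held none. A match is a description of letters and not evidence of binding. The 250 bases before the start are printed for 4 genes with a match there, from different outcomes (Mcm6 not called, Mcm5 and E2f3 higher and Gins3 lower), chosen after their values were seen, and for the members with the highest (Mcm2) and the lowest (E2f2) fold change. Each runs 5′ to 3′ on the strand of the gene, and capitals mark motif matches.
Mcm6, chr1:128359706-128359955, minus strand: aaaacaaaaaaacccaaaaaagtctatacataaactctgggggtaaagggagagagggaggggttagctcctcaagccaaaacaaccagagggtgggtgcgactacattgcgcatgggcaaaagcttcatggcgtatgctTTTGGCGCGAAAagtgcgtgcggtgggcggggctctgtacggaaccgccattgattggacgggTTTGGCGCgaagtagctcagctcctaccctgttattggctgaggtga
Mcm5, chr8:75109259-75109508, plus strand: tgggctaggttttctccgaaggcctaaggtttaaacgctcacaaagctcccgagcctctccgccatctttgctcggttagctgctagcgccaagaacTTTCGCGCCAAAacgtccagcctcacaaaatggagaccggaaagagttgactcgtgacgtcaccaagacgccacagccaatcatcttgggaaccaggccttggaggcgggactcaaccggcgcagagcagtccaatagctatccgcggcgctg
E2f3, chr13:29986064-29986313, minus strand: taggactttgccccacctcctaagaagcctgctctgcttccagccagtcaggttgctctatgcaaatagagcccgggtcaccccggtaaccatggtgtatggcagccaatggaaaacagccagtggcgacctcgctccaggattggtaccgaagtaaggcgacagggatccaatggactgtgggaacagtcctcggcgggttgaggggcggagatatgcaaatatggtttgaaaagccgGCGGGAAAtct
Gins3, chr8:95633309-95633558, plus strand: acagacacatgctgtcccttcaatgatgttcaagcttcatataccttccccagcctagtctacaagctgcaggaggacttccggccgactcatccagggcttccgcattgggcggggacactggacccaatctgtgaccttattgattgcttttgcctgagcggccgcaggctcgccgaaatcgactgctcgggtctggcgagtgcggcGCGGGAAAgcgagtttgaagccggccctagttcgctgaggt
Mcm2, chr6:88898781-88899030, minus strand: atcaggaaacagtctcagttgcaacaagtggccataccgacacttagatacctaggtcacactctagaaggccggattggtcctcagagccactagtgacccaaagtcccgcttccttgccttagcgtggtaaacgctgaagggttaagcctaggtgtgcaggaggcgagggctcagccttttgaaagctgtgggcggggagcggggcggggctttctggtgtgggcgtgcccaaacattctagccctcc
E2f2, chr4:136172024-136172273, plus strand: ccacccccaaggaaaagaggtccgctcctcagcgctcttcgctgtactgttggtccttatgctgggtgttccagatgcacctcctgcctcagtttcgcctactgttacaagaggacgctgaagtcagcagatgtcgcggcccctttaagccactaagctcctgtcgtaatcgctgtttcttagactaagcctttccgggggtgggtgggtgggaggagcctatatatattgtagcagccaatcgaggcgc
Counted from the start base as 0, matches began at -110, -106 and -47 in Mcm6, at -153 and -149 in Mcm5, at -41 in Gins3 and at -11 in E2f3. The Mcm2 window held none of these letters, and the only match of E2f2 began at 39, past the start and outside the printed stretch. E2f2 and E2f3 each have another window, not printed here, without a match.

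The comparison of tumour with normal DP cells showed no common movement of the replication genes. Helicase, polymerase delta and fragment-joining genes rose in part (Mcm2 and Mcm3, Pold1 and Pold2, Fen1 and Lig1), while 3 of the CDC45 and GINS genes and Pcna fell, and the clamp loader genes held 2 that rose and 2 that fell. These calls rest on the brightest probe set of each gene. Another probe set of Mcm2 (0.19), Pold1 (-0.38) and Fen1 (-0.02) did not pass, and Mcm3 had probe sets called in both directions. On these probe sets the widest rises among the members were in Mcm2 (3.34-fold), Rfc1 (2.97-fold) and E2f3 (2.75-fold), and the widest fall was in E2f2 (2.27-fold). The other E2f3 probe set, close to background, gave -0.92 and did not pass. Of the 49 measured members, 19 rose and 8 fell (limma, adjusted p below 0.05 over all 18193 genes), and 22 did not pass. All 49 lay above background on all 4 arrays. Among all genes 17.3% rose and 12.4% fell, and among the 9308 genes above background on all 4 arrays 29.1% rose and 22.5% fell, against 38.8% and 16.3% of the members. The median log2 fold change was 0.20 over the members and 0.09 over all genes. Both tumour arrays lay above both normal arrays for 28 members and below for 13, where 43.7% and 34.7% of the genes above background did so.

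These counts depend on how the arrays are scaled and on the variance prior. The bacterial hybridization controls lay 0.60 higher (log2) in the tumour arrays, so scaling to them lowers every log2 fold change by 0.60 and the median of all genes from 0.09 to -0.51. Under that scaling 6 members were higher and 28 lower, and the members' median was -0.40. Of all genes 7.31% were higher and 28.9% lower there. Of the 9308 genes above background on all 4 arrays, 1003 were higher and 4882 lower, with a median of -0.52. The members that remained higher were Mcm2, Mcm3, Rfc1, Pold1, Fen1 and E2f3. With limma's default prior, which takes no account of the level, only Rfc1 passed (adjusted p = 0.0435), where 4.17% of all genes were higher and 2.2% lower.

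**Figure D1:**
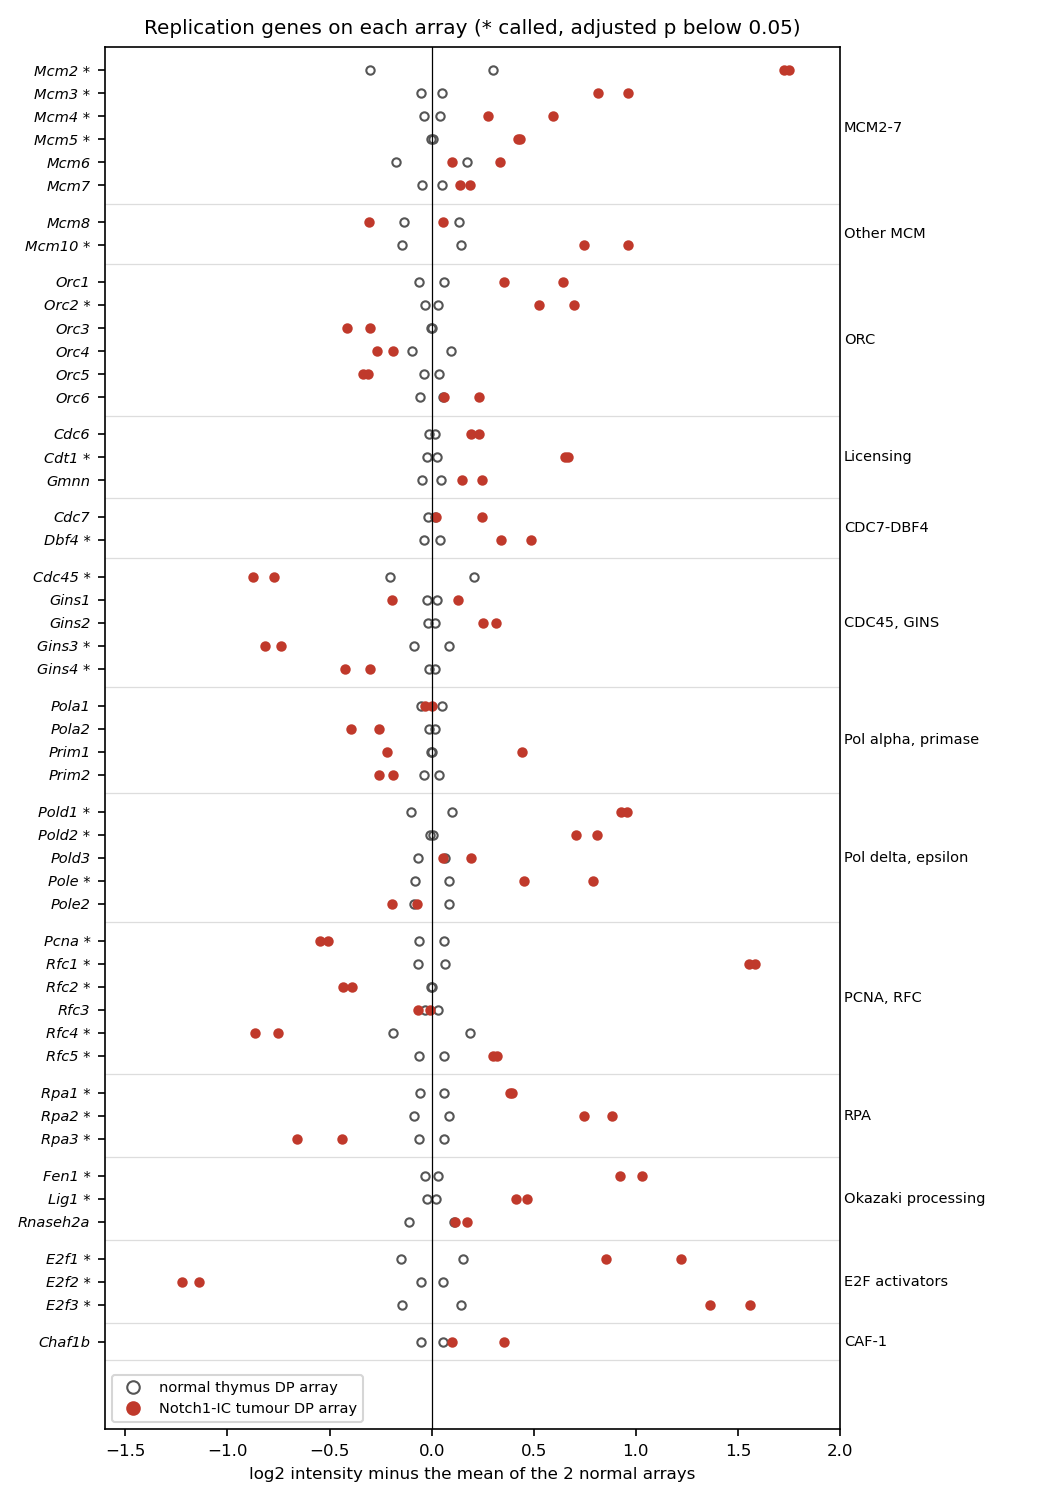
Each row is a replication gene, grouped by complex, and each point an array: log2 intensity of the gene's brightest probe set minus the mean of the 2 normal arrays (open circles, normal; filled circles, tumour; asterisk, adjusted p below 0.05). E2f2, Cdc45, Rfc4 and Gins3 lie farthest to the left and Mcm2, Rfc1 and E2f3 farthest to the right; scaling to the hybridization controls would move all tumour points left by 0.60, past 0 for Dbf4, Lig1, Mcm4, Mcm5, Rfc5 and Rpa1 among the genes called higher.

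The activator E2F genes moved in opposite directions. E2F1, E2F2 and E2F3 are related factors that switch on S-phase genes when the retinoblastoma proteins release them. E2f2 was 1083 and 1004 intensity units on the normal arrays and 446 and 474 on the tumour arrays. It fell by 1.18 ± 0.09 on the log2 scale (SE, n = 2 per group, adjusted p = 1.13e-05), and its other probe set fell by 1.15. E2f1 was 126 and 102 on the normal and 264 and 205 on the tumour arrays, a rise of 1.04 ± 0.19 (adjusted p = 0.00198), and a plain probe set of the gene rose 4.06-fold. With scaling to the hybridization controls E2f1 differed by 0.44 and did not pass (adjusted p = 0.0902). E2f3 was 115 and 94.1 on the normal and 267 and 306 on the tumour arrays, a rise of 1.46 ± 0.17 (adjusted p = 0.000117), but a probe set close to background gave -0.92 and did not pass, and the mean of both gave 0.27 (adjusted p = 0.653). On the brightest probe set of each of the 3 genes the groups did not overlap. Of the 9308 genes above background on all 4 arrays, 43.7% had both tumour arrays above both normal ones and 34.7% below. On the second E2f3 probe set the groups overlapped, at 36.4 and 18.6 in normal and 10.1 and 18.7 in tumour.

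**Figure D2:**
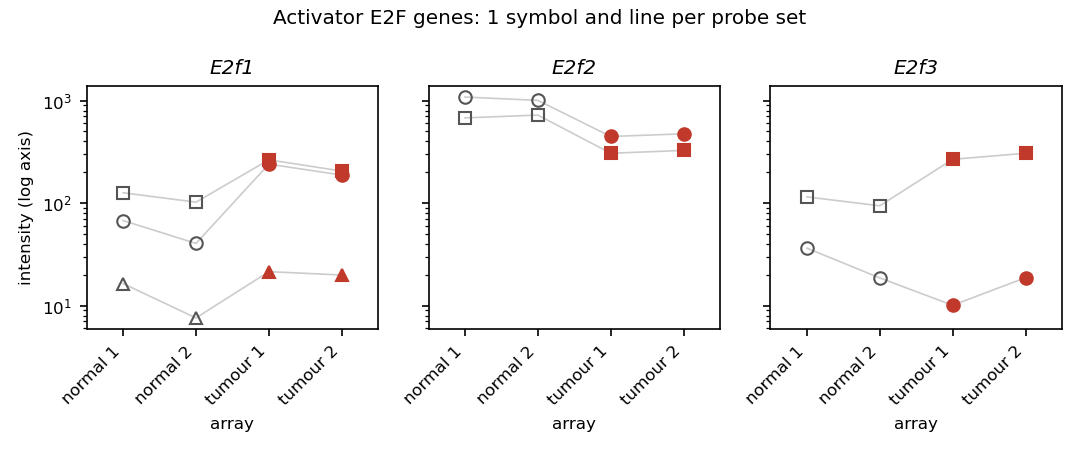
Intensity on a log axis of each measured probe set of E2f1, E2f2 and E2f3 (symbols joined by a line) on the 4 arrays, open for normal and filled for tumour. Both E2f2 probe sets drop from normal to tumour, 2 of the 3 E2f1 probe sets are called higher in tumour and the dimmest is not, and the brighter E2f3 probe set stands at 115 and 94.1 in normal and at 267 and 306 in tumour.

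Among the 10 other E2F, DP and retinoblastoma family genes, 2 rose and 2 fell (20% each). These shares stand beside 17.3% and 12.4% of all genes, and 29.1% and 22.5% of those above background on all 4 arrays. The partners of E2F, Tfdp2 (log2 fold change 0.59 ± 0.10) and Tfdp1 (0.55 ± 0.08), rose. Rb1 and Rbl2, which restrain E2F activity, fell by 1.30 ± 0.10 and 1.28 ± 0.10. Rb1 was 1041 and 1200.3 on the normal and 437 and 469 on the tumour arrays, and Rbl2 was 759 and 689 against 293 and 301. With scaling to the hybridization controls both DP genes turned slightly negative, at -0.01 and -0.05.

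The MCM helicase genes rose in 4 of 6 cases. Of all genes 17.3% rose, and of those above background on all 4 arrays 29.1%. MCM2 to MCM7 form the ring that unwinds DNA at the fork. Their median log2 fold change was 0.43, which turned to -0.17 with scaling to the hybridization controls. Under that scaling 2 were higher and 2 lower, where 7.31% of all genes were higher and 28.9% lower. Of the 9308 genes above background on all 4 arrays, 1003 were higher and 4882 lower there. Mcm2 was 564 and 857 on the normal and 2301 and 2339 on the tumour arrays, the widest difference of any member (1.74 ± 0.16, 3.34-fold, adjusted p = 2.84e-05). That probe set may also bind other transcripts (class _s_at), and the plain probe set of Mcm2 was 1004 and 999 against 1144 and 1145, a difference of 0.19 that did not pass (adjusted p = 0.139). Its size therefore rests on which probe set is read.

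Mcm3 was 1388 and 1491 on the normal and 2529 and 2801 on the tumour arrays (0.89 ± 0.08, adjusted p = 2.67e-05). Of its 5 probe sets 3 rose, by 0.89 to 1.21, 1 fell by 0.55 and 1 gave 0.92 without passing. Mcm5 was 2188 and 2205 against 2946 and 2963 on an _x_at probe set (0.43 ± 0.07, adjusted p = 0.00073). A dim plain probe set of Mcm5 rose by 1.72, from 27.8 and 33.5 in normal to 96.8 and 105 in tumour. Another plain one fell by 0.51, from 718 and 663 to 514 and 456. Mcm4 rose by 0.44 ± 0.10 (adjusted p = 0.00966) and by 0.83 on its other probe set, and lost its call without normal replicate 1 (0.40, adjusted p = 0.0951) or without tumour replicate 1 (0.28, adjusted p = 0.110). Mcm6 did not pass (0.22 ± 0.12), and its normal arrays, at 1990.1 and 2532, overlapped its tumour arrays, at 2403 and 2835, although an _x_at probe set of the gene rose by 0.38. Mcm7 was 4989 and 5339 on the normal and 5884 and 5678 on the tumour arrays, 0.16 ± 0.06 and short of the threshold (adjusted p = 0.0741), with 1 of its other probe sets that rose by 0.28 and 1 that fell by 0.49.

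The 2 further MCM proteins are not part of that ring. MCM10 helps to start the helicase, and Mcm10 was 225 and 184 on the normal and 396 and 341 on the tumour arrays (0.85 ± 0.15, adjusted p = 0.0015). It differed by 0.25 with scaling to the hybridization controls and did not pass there. MCM8 acts mainly in recombination, and Mcm8 overlapped between groups, at 63.7 and 76.6 against 56.5 and 72.7 (-0.12 ± 0.25).

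Of the 6 origin recognition complex genes, Orc2 alone passed on its brightest probe set (16.7%, where 17.3% of all genes rose). With scaling to the hybridization controls Orc2 did not pass, and Orc3, Orc4, Orc5 and Orc6 were called lower. So were 4882 of the 9308 genes above background on all 4 arrays. The complex marks origins, and ORC1 is, in human cells, the subunit whose level follows the cell cycle. Orc2 was 177 and 185 on the normal and 260.03 and 294 on the tumour arrays (0.61 ± 0.14, adjusted p = 0.00726), and all 3 of its probe sets rose, 1.53-fold to 2.84-fold. On its brightest probe set Orc2 lost the call without normal replicate 1 (0.58, adjusted p = 0.0507) or tumour replicate 2 (0.52, adjusted p = 0.0692), and differed by 0.01 with scaling to the hybridization controls. Orc3 was 284 and 283 against 230 and 212, -0.36 ± 0.13 and short of the threshold (adjusted p = 0.0619), and its other probe sets gave 0.65 and -1.62, neither called. Orc1 gave 0.50 ± 0.25, with 0.89 on another probe set that passed over all probe sets (adjusted p = 0.0269), Orc6 0.15 ± 0.10, Orc4 -0.23 ± 0.12 and Orc5 -0.32 ± 0.13. The median of the 6 was -0.04, and it changed sign with the choice of probe sets (0.18 for the mean of probe sets) and without normal replicate 1 (0.035) or tumour replicate 2 (0.022).

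Among the licensing factors, Cdt1, which brings MCM to origins together with CDC6, was 1894 and 1959 on the normal and 3030 and 3060 on the tumour arrays (0.66 ± 0.07, adjusted p = 5.37e-05). A plain probe set of the same gene was 517 and 508 against 409 and 351 and fell by 0.44 (adjusted p = 0.0232). Gmnn, which encodes the CDT1 inhibitor geminin, was 1267 and 1187 against 1457 and 1358 (0.20 ± 0.08, adjusted p = 0.110), and Cdc6 gave 0.21 ± 0.10. For the kinase that fires licensed origins, Dbf4, its regulatory subunit, was 829 and 875 against 1079 and 1194 (0.41 ± 0.09, adjusted p = 0.00594). Dbf4 lost its call without tumour replicate 2 (0.34, adjusted p = 0.0804) and turned to -0.19 with scaling to the hybridization controls. Cdc7, the catalytic subunit, was 359 and 351 against 421 and 360.2 (0.13 ± 0.12) and did not pass.

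CDC45 and GINS join the MCM ring to make the active helicase. Of their 5 genes 3 fell and 0 rose, with a median of -0.36. Of all genes 12.4% fell, and of those above background on all 4 arrays 22.5%. With scaling to the hybridization controls the median of the 5 was -0.96 and 4 were lower. Of the 9308 genes above background on all 4 arrays, 4882 were lower there. The difference between the CDC45 and GINS genes and the MCM genes was not tested. Cdc45 was 219 and 165 on the normal and 103 and 111 on the tumour arrays (-0.82 ± 0.19, adjusted p = 0.00768). Gins3 was 146 and 130 on the normal and 82.8 and 78.3 on the tumour arrays (-0.78 ± 0.19, adjusted p = 0.0111), and its other probe set gave -0.77 without passing (adjusted p = 0.0986). Gins4 was 600 and 587 against 482 and 442 (-0.36 ± 0.10, adjusted p = 0.0213). Both tumour arrays lay below both normal arrays for these 3 genes, as for 34.7% of the genes above background on all 4 arrays. The 3 calls nevertheless rest on all 4 arrays. Leaving out normal replicate 1 ended all 3, at -0.62 for Cdc45 (adjusted p = 0.0915), -0.69 for Gins3 (adjusted p = 0.0981) and -0.35 for Gins4 (adjusted p = 0.102). Cdc45 also lost its call without tumour replicate 1 (adjusted p = 0.0513), Gins3 without tumour replicate 2 (adjusted p = 0.0529), and Gins4 without any array, with values from -0.30 to -0.42. Gins2 was 254 and 248 against 298 and 312 (0.28 ± 0.12), and Gins1 overlapped between groups (-0.03 ± 0.12), neither of them called.

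No gene of polymerase alpha and primase, which lay the first stretch of each strand, passed the test on its brightest probe set, nor did any pass with limma's default prior, and 1 of the 4, Pola2, was lower at an unadjusted p below 0.05. With scaling to the hybridization controls all 4 were called lower, with a median of -0.72. Of the 9308 genes above background on all 4 arrays, 4882 were lower there, and the median of the 9308 was -0.52. Pola2 was 261 and 266 on the normal and 220.3 and 200.1 on the tumour arrays (-0.33 ± 0.13, adjusted p = 0.0981). Prim1 was 963 and 969 against 1311 and 829, so its tumour arrays lay on both sides of the normal ones (0.11 ± 0.17), and its plain probe set alone gave -0.38 (adjusted p = 0.0077). Pola1 gave -0.01 ± 0.10 and Prim2 -0.22 ± 0.11, while another probe set of Prim2, of class _a_at, rose by 1.07 (adjusted p = 0.00103).

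Of 5 genes of polymerases delta and epsilon, 3 rose and 0 fell. Among all genes 17.3% rose and 12.4% fell, and among those above background on all 4 arrays 29.1% and 22.5%. The catalytic subunit gene of polymerase delta, Pold1, was 570 and 496 on the normal and 1032 and 1010.2 on the tumour arrays (0.94 ± 0.10, 1.92-fold, adjusted p = 6.85e-05). Its plain probe set was 306 and 293 against 236 and 223 (-0.38 ± 0.13), which did not pass over all probe sets (adjusted p = 0.0596) and passed as a fall when plain probe sets alone stood for genes (adjusted p = 0.0438). The accessory subunit gene Pold2, measured by 1 plain probe set, rose by 0.76 ± 0.10 (adjusted p = 0.000266). Pole, the catalytic subunit gene of polymerase epsilon, rose by 0.62 ± 0.16 (adjusted p = 0.0149), but not without normal replicate 1 (0.54, adjusted p = 0.110) or tumour replicate 1 (0.45, adjusted p = 0.131). With scaling to the hybridization controls Pold2 differed by 0.16 and Pole by 0.02, and neither passed. Pole2 was 293 and 331 against 296 and 272 (-0.13 ± 0.13), with overlapping groups, and Pold3 gave 0.12 ± 0.14.

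The sliding clamp and its loader held both risers and fallers. PCNA holds the polymerase on DNA, and the RFC complex opens it and loads it. Pcna was 10373 and 9522 on the normal and 6989 and 6807 on the tumour arrays (-0.53 ± 0.06, 1.44-fold lower, adjusted p = 9.81e-05). Rfc1, the large subunit, was 320.2 and 293 on the normal and 900.2 and 919 on the tumour arrays (1.57 ± 0.10, adjusted p = 3e-06), and all 3 of its probe sets rose, by 0.44, 1.38 and 1.57. Among the small subunits Rfc4 was 562 and 729 against 351 and 380.1 (-0.81 ± 0.13, adjusted p = 0.00123), but its _s_at probe set gave 0.14 and did not pass. Rfc2 was 521 and 522 against 399 and 386 (-0.41 ± 0.10, adjusted p = 0.0115), while 1 of its _x_at probe sets rose by 0.91. Its fall did not pass when any 1 of the 4 arrays was left out (-0.39 to -0.43, adjusted p = 0.052 to 0.0758), and the mean of its probe sets gave 0.31. Rfc5 rose by 0.31 ± 0.09 (adjusted p = 0.0293) and lost the call without normal replicate 2 (0.25, adjusted p = 0.145), tumour replicate 1 (0.32, adjusted p = 0.123) or tumour replicate 2 (0.30, adjusted p = 0.144). Rfc3 gave -0.04 ± 0.13 on its brightest probe set and 0.64 on its plain one (adjusted p = 0.00428 where plain probe sets alone stood for genes).

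The single-strand binding complex RPA covers unwound DNA. Rpa2 was 634 and 714 on the normal and 1239 and 1130 on the tumour arrays (0.82 ± 0.10, adjusted p = 0.000154), but its _a_at probe set fell by 0.76, from 287 and 369 to 201 and 182. Rpa3, the small subunit, was 1733 and 1888 on the normal and 1333 and 1143 on the tumour arrays (-0.55 ± 0.09, adjusted p = 0.0015). The large subunit gene Rpa1 rose by 0.39 ± 0.06 on an _a_at probe set, with -0.075 on the plain one, and turned to -0.21 with scaling to the hybridization controls.

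Of the genes that finish Okazaki fragments, 2 of 3 rose, beside 17.3% of all genes and 29.1% of those above background on all 4 arrays. Fen1, the flap nuclease, was 1024 and 1068 on the normal and 1985 and 2134 on the tumour arrays on an _x_at probe set (0.98 ± 0.08, 1.97-fold, adjusted p = 1.25e-05), and 942 and 944 against 926 and 939 on an _a_at one, which did not pass. Lig1, DNA ligase 1, rose by 0.44 ± 0.08 (adjusted p = 0.00279) and turned to -0.16 with scaling to the hybridization controls. Rnaseh2a, a subunit of the RNase that removes RNA from DNA, was 288 and 335 against 336 and 350.1 (0.14 ± 0.12), and Chaf1b, a CAF-1 subunit that helps to place histones behind the fork, was 237 and 220 against 292 and 245 (0.23 ± 0.14). Neither passed.

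Probe sets of 1 gene often gave different answers. Over 31 members with at least 2 probe sets above the background level on average, 6 (19.4%) had probe sets called in opposite directions (Cdt1, Mcm3, Mcm5, Mcm7, Rfc2 and Rpa2), against 7.32% of 5067 such genes on the whole array. For this count each probe set was tested among all 45037, of which 11.3% were higher and 11.5% lower. The outcome moved with probe set class. Classes _s_at and _x_at may bind other transcripts and _a_at binds several transcripts of the same gene. Of 35 member probe sets of these classes 17 rose and 2 fell, and of 59 plain ones 17 rose and 13 fell. Over all genes with measured probe sets, 1582 of 5425 of these classes rose and 1120 fell, and 2746 of 13962 plain ones rose and 2874 fell. Within 21 members that have both kinds, the mean log2 fold change was higher for the special classes in 15 (71.4%), with a median gap of 0.46, against 1435 of 2391 genes and a gap of 0.19 on the whole array. With plain probe sets alone 12 of 43 members rose and 12 fell, with a median of -0.014. The median over the 16591 genes with such a probe set was 0.05. The shares of those genes called are not given here. The nearest values are those of the measured plain probe sets above, where 2746 of 13962 rose and 2874 fell. Every measured probe set was called in the same direction for 4 members with several probe sets, of which Rfc1, Orc2 and Mcm4 rose and E2f2 fell. A further 8 called members had 1 measured probe set, and of these Dbf4, Lig1, Pold2, Pole and Rfc5 rose and Pcna, Rpa3 and Gins4 fell.

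**Figure D3:**
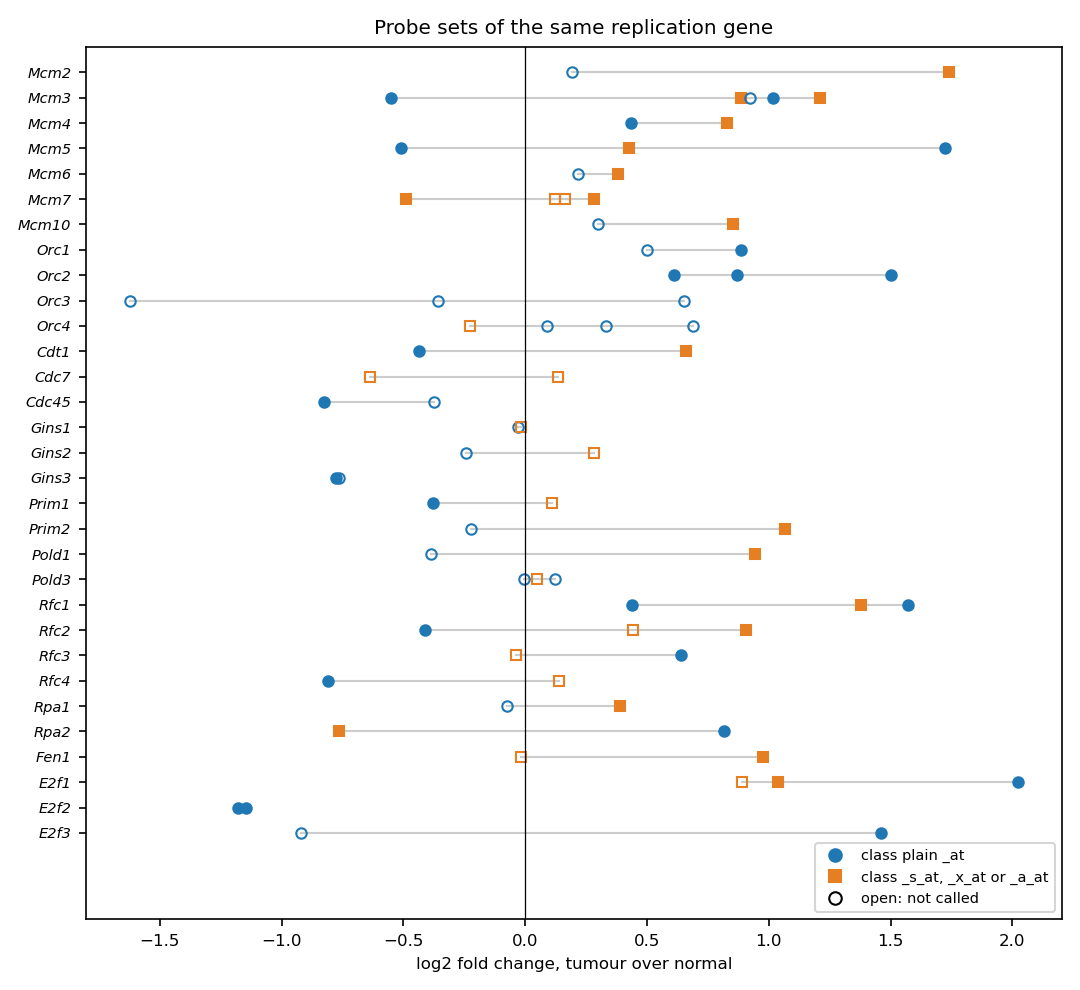
Log2 fold change of each probe set of the 31 replication genes with several measured probe sets (circles, plain class; squares, classes _s_at, _x_at and _a_at; filled, adjusted p below 0.05 over all probe sets). Rows such as Mcm5, Rpa2 and Cdt1 span 0 with filled symbols on both sides, and both E2f2 and all 3 Rfc1 and Orc2 symbols stay on 1 side; scaling to the hybridization controls would shift every symbol left by 0.60 and put 1 Rfc1 symbol below 0.

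Further genes of replication also held both risers and fallers, beside 17.3% and 12.4% of all genes. Of the 9308 genes above background on all 4 arrays, 29.1% rose and 22.5% fell. With scaling to the hybridization controls 7.31% of all genes were higher and 28.9% lower, as were 1003 and 4882 of those 9308. Of 22 other fork factors 11 rose and 3 fell, with a median of 0.30. With plain probe sets alone the median was 0.10, over the 21 fork factors that have such a probe set. With scaling to the hybridization controls 1 of the 22 was higher and 11 were lower, with a median of -0.30. Dnmt1, the methyltransferase that copies DNA methylation behind the fork, rose by 1.02 ± 0.07 on an _x_at probe set. Chtf18, of an alternative clamp loader, rose by 0.98 ± 0.30 and the nuclease Dna2 by 0.92 ± 0.11. The histone chaperone Asf1b fell by 0.60 ± 0.09, the topoisomerases Top2a and Top1 by 0.40 ± 0.07 and 0.39 ± 0.07. Of 12 other origin factors 3 rose and 2 fell. The rises were in Recql4 (1.28 ± 0.31), Lrwd1 (0.51 ± 0.07, on an _x_at probe set) and Topbp1 (0.47 ± 0.09). Cdk2 fell by 0.52 ± 0.12 and Mcmbp by 0.36 ± 0.10. With scaling to the hybridization controls 0 of the 12 were higher and 6 lower. TOPBP1 and the kinase CDK2 act in origin firing, and MCMBP binds MCM proteins. Of 13 polymerases of repair, damage bypass and mitochondria 4 rose and 3 fell, and 0 were higher and 5 lower with scaling to the hybridization controls. Poll and Polm act in end joining. Poll was 8.25 and 12.4 on the normal arrays, at or near background, and 61.3 and 27.6 on the tumour arrays, so its fold is not given. Polm rose by 1.14 ± 0.29, and Polg, the mitochondrial polymerase, fell by 0.91 ± 0.11. Polg2, the accessory subunit of that polymerase, rose by 0.73 ± 0.17, and the other falls were Rev3l and Polb, at -0.67 ± 0.10 and -0.65 ± 0.12.

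Of 13 measured genes of the cell cycle and of nucleotide supply, 3 rose and 4 fell (23.1% and 30.8%). The shares were 17.3% and 12.4% of all genes, and 29.1% and 22.5% of those above background on all 4 arrays. Mki67, which encodes the proliferation antigen Ki-67, was 1064 and 998 on the normal and 4319 and 3752 on the tumour arrays (1.97 ± 0.09, 3.91-fold). Rrm1, a subunit of ribonucleotide reductase, rose by 0.56 ± 0.06 and Dut, which clears dUTP, by 0.30 ± 0.06. The mitotic genes Aurka (-0.85 ± 0.11), Ccnb2 (-0.75 ± 0.08) and Bub1 (-0.43 ± 0.10) were the largest falls. With scaling to the hybridization controls 1 of the 13 was higher and 10 lower, where 7.31% of all genes were higher and 28.9% lower. Of the 9308 genes above background on all 4 arrays, 1003 were higher and 4882 lower there.

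**Figure D4:**
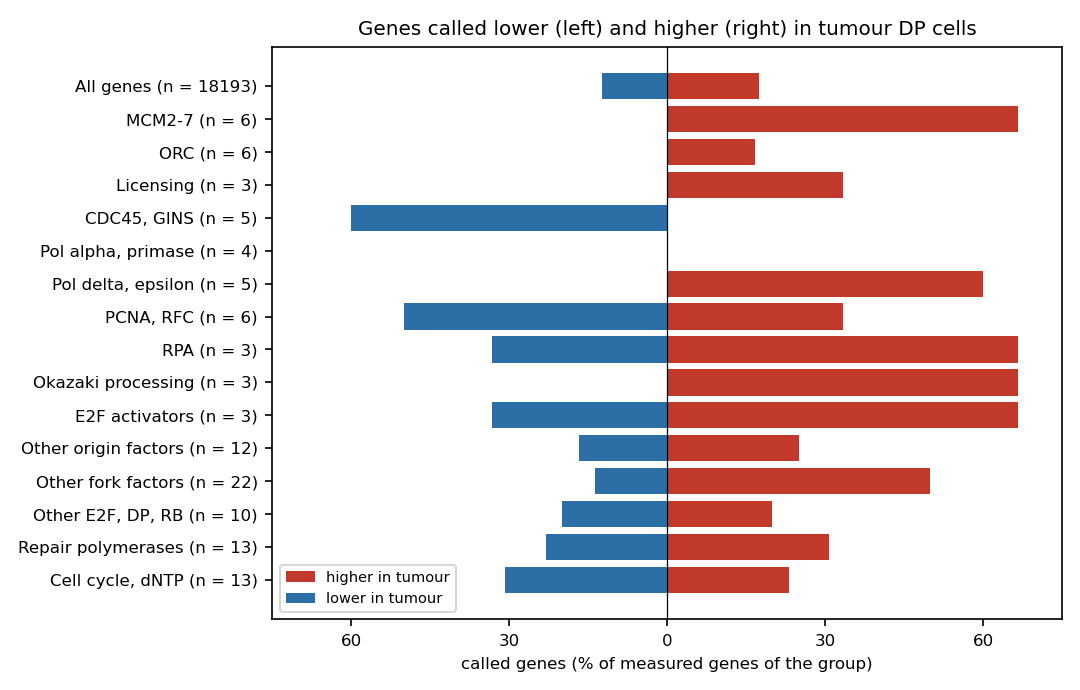
Bars give the percentage of measured genes of each group called lower (left) or higher (right) in tumour DP cells, for all genes and for each group with at least 3 genes. All genes stand at 12.4% and 17.3%. The CDC45 and GINS genes have calls on the lower side alone. MCM2 to MCM7, ORC, licensing, polymerases delta and epsilon and Okazaki genes have them on the higher side alone. With scaling to the hybridization controls this is lost, with 2 MCM genes higher and 2 lower, 0 and 4 of ORC and 0 and 2 of licensing. Polymerases delta and epsilon then have 1 and 2, and Okazaki genes 1 and 1. Under that scaling 7.31% of all genes are higher and 28.9% lower. Of the 9308 genes above background on all 4 arrays, 1003 are higher and 4882 lower.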

How the data were processed

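Total RNA (100 ng) was labelled by 3' in vitro transcription, per the labels' protocols. The authors deposited 1 linear intensity per probe set and array (0.08 to 19270), with RMA as the tool in the submitters' processing notes. Linear values under 1 are unusual for RMA, so how probes were summarised is not settled. Log2 was taken with no offset and no filter. Of the probe sets with 1 platform symbol, that of highest mean over the 4 arrays stood for a gene. Differences were fitted on all genes with limma 3.58.1 in R 4.3.3 (trend and robust prior) and adjusted by Benjamini-Hochberg at 0.05. That prior was chosen because replicates spread far more at low levels (median log2 SD 1.31 in the lowest 25% of genes, 0.084 in the highest). Background is an array's highest value among 27 bacterial control probe sets other than the hybridization controls. Spike scaling shifts each array to the mean of 14 hybridization controls.

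The members, lists and tests were chosen with earlier results of these data known. Named genes were all members by complex, with values on every array for the highest and lowest of each complex, all that fell and those with opposed probe sets, and, from other lists, up to 3 called genes of largest change per direction. E2f1, Mcm6, Poll, Rb1, Rbl2 and Mki67 were added to the values on every array after they were seen. Alternatives were the default prior, median, quantile and spike scaling, a 30th percentile filter, a threshold of 0.01, other probe set choices, the replicate block and leaving out each array. Promoters came from RefSeq (GRCm38.p6), and Python 3.11.15 was used. The number of arrays limits the precision.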

Additional observations from a re-analysis of the deposited data

How the results depend on the processing

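The main counts were 19 members higher and 8 lower, of 3156 and 2251 genes. Median subtraction, quantile normalization and the 30th percentile filter kept each of these counts within 1.5 times. The default prior gave 1 and 0 members (759 and 401 genes), and with it 26 of the 27 called members did not pass. Spike scaling gave 6 and 28 members (1330 and 5250 genes), with medians of -0.40 (members), -0.17 (MCM2 to MCM7) and -0.64 (ORC). It turned Dbf4 (-0.19), Lig1 (-0.16), Mcm4 (-0.17), Mcm5 (-0.17), Rfc5 (-0.29) and Rpa1 (-0.21). A threshold of 0.01 left 5 members lower. The mean of probe sets gave 12 and 5 members and 1865 genes higher, medians of 0.61 (MCM2 to MCM7) and 0.18 (ORC), and turned Rfc2 (0.31). Plain probe sets alone gave 12 members higher and 12 lower, and the counts of all genes are not given here. The medians with plain probe sets alone were -0.014 (members), 0.22 (MCM2 to MCM7) and 0.12 (ORC). That choice turned Cdt1 (-0.44), Mcm5 (-0.51), Pold1 (-0.38) and Rpa1 (-0.075). Apart from the construction of each alternative, the cause was not tested.

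Leaving out 1 array gave 16 to 19 members higher and 4 to 6 lower, 2269 to 2669 and 1609 to 1868 genes, and medians of 0.15 to 0.25 (members), 0.38 to 0.51 (MCM2 to MCM7) and -0.10 to 0.035 (ORC). In those fits a lone array is assumed to vary like the other group. Of 27 called members 9 lost their call without some array and 0 changed sign. Outside the default prior and spike scaling, E2f1, Fen1, Lig1, Mcm3, Pold2 and Rfc1 (higher) and E2f2, Pcna and Rpa3 (lower) kept call and direction under all alternatives that could give a value for them. Fen1 has no plain probe set, and its _a_at one gave -0.02. Lig1, Pold2, Pcna and Rpa3 have 1 probe set each, so other probe set choices could not change their values. The replicate block gave 22 and 9 members (3469 and 2554 genes); no label says that the numbers pair the samples, and the deviations of same-numbered arrays correlated at 0.01 over all genes and 0.25 over genes whose mean log2 level reached 7. Dim probe sets carry the least reliable values.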
